A study of Rattus norvegicus with 90 samples.

Results

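The comparison described here was that of primary rat hepatocytes exposed for 9 h to the high dose of thioacetamide-S-oxide, 0.125 mM, with hepatocytes kept for 9 h in vehicle. The sample labels for cell type, dose and duration chose 10 libraries of the 90 in the series, 5 from each group. The hepatocytes came from the liver of Sprague-Dawley rats and were bought as cryopreserved cells, and the vehicle was the maintenance medium in which the treated cells were also held. No label states that the cultures of a group came from separate animals, so the p-values measure the spread between cultures, which may be technical. Poly-A-enriched libraries were sequenced, and the estimated number of reads of each transcript was deposited for each library.

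Thioacetamide is a classic experimental liver toxicant that needs to be metabolized to harm cells. Enzymes of the hepatocyte, mainly cytochromes P450 and flavin monooxygenases, oxidize it to thioacetamide-S-oxide and then to a reactive S,S-dioxide that binds to proteins and lipids. The S-oxide was given here directly, one step before the reactive product. Hepatocytes devote much of their RNA to a small number of liver transcripts, such as those of secreted plasma proteins and of drug metabolism, and changes in that part of the RNA are commonly used to follow injury or loss of differentiation in culture. RNA was compared in relative amounts per library, so that fewer cells and less RNA per cell cannot be told apart in these values.

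Every table listed 65166 targets, of which 40071 were transcripts with Ensembl identifiers and 25095 were unnamed genomic intervals. The 10 libraries held between 15413513 and 35811769 estimated counts, 90.2 to 93.7% of them on transcripts, and between 20940 and 22902 transcripts had counts in a library. No tables held identical values. No gene names are given below, because neither the deposited tables nor the reference tables used here pair these transcript identifiers with genes, and 4 transcripts are given by identifier only. The cell type was therefore checked by the ranks of all tested transcripts, using the 24 h vehicle libraries of each cell type as a standard. Each of the 10 libraries had a median Spearman correlation across transcripts between 0.932 and 0.941 with the hepatocyte libraries, between 0.717 and 0.726 with the renal libraries and between 0.691 and 0.703 with the cardiomyocyte libraries. Of the hepatocyte vehicle cultures at 24 h, library MS-183 had 8.33% of its counts on transcripts and was left out of every value that uses 24 h vehicle cultures unless stated. The other 4 libraries labelled vehicle at 24 h also stood apart, and their library numbers (MS-181 to MS-185) lie outside the run of the other hepatocyte libraries (MS-91 to MS-120). Over the transcripts tested at 9 h, the median absolute difference between group means, on the log2 CPM scale with its median removed, was 0.41 between vehicle at 24 h and vehicle at 9 h. It was 0.22 between the low dose at 24 h and vehicle at 9 h, 0.30 between the high dose at 24 h and vehicle at 9 h, and 0.26 between the high dose and vehicle at 9 h.

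The high dose changed 18.4% of the transcripts tested within 9 h, in nearly equal numbers up and down, and mostly by moderate amounts. Of 16607 transcripts tested, 3062 were differentially expressed (DEGs). A DEG had to change by at least 0.41 on the natural-log scale, or 1.51-fold, with an adjusted p-value of at most 0.05 in edgeR's quasi-likelihood test. Of these, 1409 were higher at the high dose (8.48% of the transcripts tested) and 1653 were lower (9.95%). The median log2 fold change was 0.93 among the higher DEGs, with a middle range from 0.73 to 1.30, and −0.85 among the lower DEGs, with a middle range from −1.13 to −0.70. With the adjusted p-value alone, 4087 transcripts were higher and 4171 were lower, so that most of the transcripts passing the test changed by less than 1.51-fold. The split between higher and lower depended on the scaling. On the deposited TPM, a level corrected for transcript length with the same total in every library, the median of the 15317 transcripts that limma tested differed by −0.12 on the log2 scale, and limma called 627 higher and 1524 lower.

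The DEGs were chosen on these same libraries, so their separation is given as a description only. The 5 high-dose values lay outside the range of the 5 vehicle values in 1191 of the higher DEGs (84.5%) and in 1420 of the lower DEGs (85.9%), against 37.4% of all transcripts tested. Leaving out any single library kept 2422 of the 3062 DEGs. Among the 6566 tested transcripts whose counts were written as exactly whole numbers in all 10 libraries, 9.23% were higher and 10.4% were lower DEGs, close to the shares over all transcripts. The libraries also separated without reference to the DEGs. In a principal component analysis of the 15 hepatocyte libraries at 9 h over 14711 transcripts, the first component held 40.9% of the variance and placed the high dose between 30.2 and 39.4, the low dose between −8.04 and −2.65, and vehicle between −32.6 and −21.8. The second component, which held 9.26%, did not follow the dose. On it vehicle library MS-95 (23.9) and high-dose library MS-105 (22.3) stood apart from the other 8 libraries of the 2 groups (−13.9 to −2.43). Low-dose libraries MS-97 (18.1) and MS-98 (9.42) lay between. MS-95, MS-97 and MS-105 had the highest percentage of counts on transcripts in their groups, 93.7, 94.1 and 93.4%. However, vehicle library MS-94 also had 93.7% and lay at −2.43, and MS-98 had the lowest percentage of its group, 92.7%. Without MS-95 and MS-105, 3190 transcripts were DEGs, of which 1471 were higher and 1719 were lower.

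**Figure D1:**
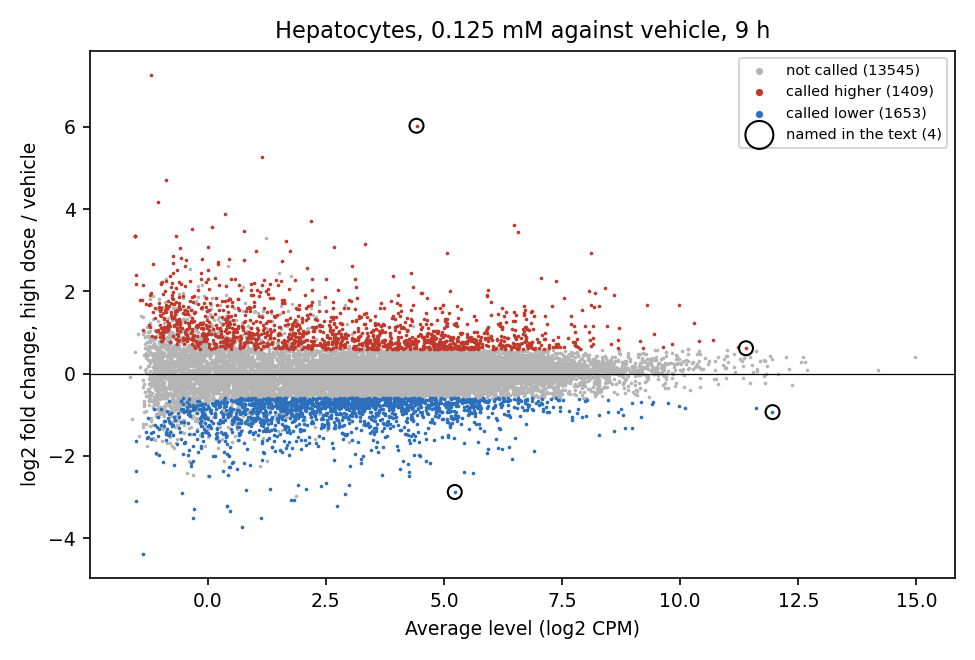
Log2 fold change of the high dose over vehicle at 9 h against the average level in log2 CPM, for the 16607 transcripts tested, with the 1409 higher DEGs, the 1653 lower DEGs and the 4 transcripts named in the text marked. DEGs lie on both sides at all levels, and the widest fold changes lie at low levels.

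Changes of 2-fold or more were found in 619 higher and 581 lower DEGs. The tail of large changes was longer on the higher side, with 7.17% of the higher and 3.57% of the lower DEGs at 4-fold or more, and 22 higher and 12 lower DEGs at 8-fold or more. Most of these very large changes belonged to weakly expressed transcripts. The 22 that were at least 8-fold higher had a median average level of 0.05 on the log2 CPM scale, and 4 of them reached a log2 CPM of 3. None of the 12 that were at least 8-fold lower reached that level. The groups did not overlap in 16 of the 22 and in all 12, against 37.4% of all transcripts tested. Both sets were chosen for large changes in these same libraries. Among transcripts at a log2 CPM of at least 3, 18 were higher and 17 were lower by 4-fold or more. The groups were separated in 17 of the 18 and in all 17. Over all transcripts they were separated in 44.7% between a log2 CPM of 3 and 6 and in 47.8% between 6 and 9. A complete switch between presence and absence was rare. Counts were present in all 5 high-dose libraries and absent from all 5 vehicle libraries for 10 transcripts, and the reverse held for 15, of the 29135 with a count in any of the 10 libraries. Nearly all of these were under the count filter, and 1 was tested, which was a higher DEG.

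The balance of higher and lower DEGs changed with the expression level. Among transcripts under a log2 CPM of 0, 13.3% were higher and 7.70% were lower. Between 0 and 3 the lower DEGs predominated, with 16.6% against 10.7%. Between 3 and 6, 8.94% were lower and 6.92% were higher, and between 6 and 9, 3.73% were lower and 5.90% were higher. Among the 256 transcripts at a log2 CPM of 9 or more, 4.69% were higher and 3.52% were lower, and the median log2 fold change of these most abundant transcripts was 0.15, against 0.00053 over all transcripts tested. On the TPM scale, with 1 added before the log, these differences were 0.0085 and −0.11, so that the most abundant transcripts were higher only relative to all transcripts. The weight of the most abundant transcripts was also higher at the high dose. The 10 most abundant transcripts of a library took between 9.05 and 9.37% of its transcript counts in vehicle and between 9.74 and 10.7% at the high dose, and the 100 most abundant took 25.3 to 26.2% and 27.2 to 28.5%, with no overlap between groups in either measure.

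The 4 transcripts given by identifier were the DEGs with the largest log2 fold change in each direction and the largest rise and fall in mean CPM, the counts scaled to a common library size, among those at a log2 CPM of at least 3 whose groups did not overlap. They differ in how far their values can be relied on. The largest fall, ENSRNOT00000028781, 2118 bases long, stood at 78.2, 67.3, 76.2, 58.8 and 48.5 CPM in the vehicle libraries. At the high dose it stood at 9.77, 8.56, 9.79, 6.76 and 9.92 CPM. Every high-dose library was thus far under every vehicle library, and the spread within the high dose was small. The log2 fold change was −2.88 (SE 0.15, edgeR adjusted p = 8.41e-08), and the mean in vehicle was 7.35 times that at the high dose. At the low dose, compared with the same vehicle libraries, the log2 fold change was −1.02 (SE 0.13).

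The largest rise, ENSRNOT00000046799, 450 bases long, stood at 2.77, 0.0366, 0, 0.151 and 0 CPM in the vehicle libraries. It stood at 84.4, 8.12, 35.6, 45.8 and 36.4 CPM at the high dose. The groups did not overlap, but the values within the high dose varied widely, and 1 vehicle library stood above the other 4. The log2 fold change was 6.03 (SE 0.87, edgeR adjusted p = 0.000144), and it was 9.39 without vehicle library MS-91, so that its size rested on 1 library with few counts. Its counts were whole numbers in 1 of the 10 libraries, so that at least some of its reads were divided with other transcripts. It was also uneven in groups outside this comparison, from 0 to 186 TPM in the low-dose cultures at 9 h and from 0 to 397 TPM in high-dose cardiomyocytes at 24 h, so its level varied in the same range without a difference in dose.

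The largest rise in mean CPM was that of ENSRNOT00000009813, 1588 bases long and far more abundant in hepatocytes than in the other cell types. It stood at 2032, 2029, 2140, 2117 and 2294 CPM in vehicle. At the high dose it stood at 2955, 3175, 3402, 3072 and 3667 CPM. All high-dose values were above all vehicle values, with a mean of 3254 ± 284 CPM (SD, n = 5) against 2122 ± 108 CPM (SD, n = 5). The log2 fold change of 0.62 (SE 0.06, edgeR adjusted p = 6.22e-06) was close to the fold threshold, and without high-dose library MS-105 it was 0.57, under that threshold. The largest fall in mean CPM was that of ENSRNOT00000057585, 8136 bases long. It stood at 6596, 5449, 5549, 4674 and 3808 CPM in vehicle and at 3076, 2553, 2959, 2318 and 2712 CPM at the high dose. The groups did not overlap although the vehicle libraries spread widely, and the log2 fold change was −0.94 (SE 0.13, edgeR adjusted p = 0.000106). Reads divided with similar transcripts enter the values of all 4 transcripts, since each had counts with a fractional part in at least 1 library.

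**Figure D2:**
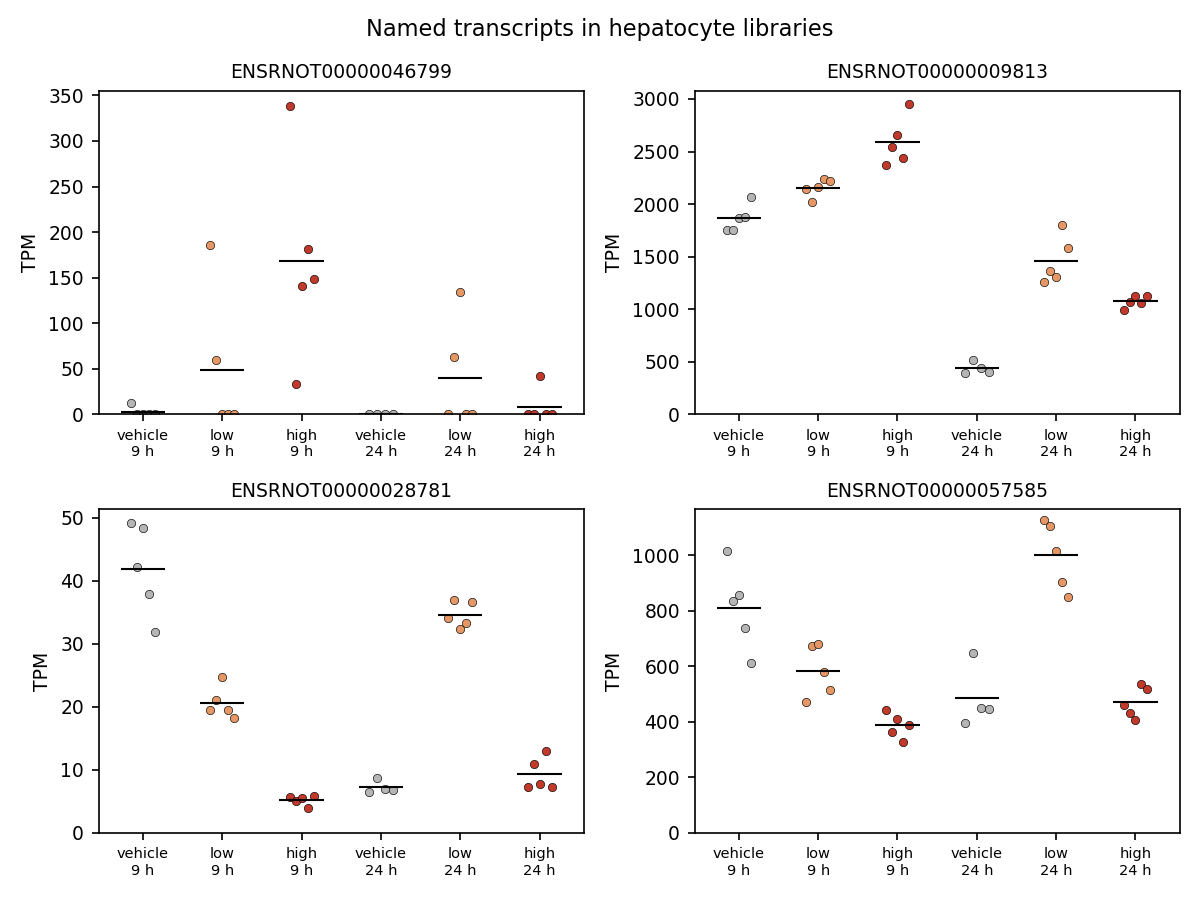
Level in TPM of the 4 named transcripts in each hepatocyte library, by dose and time, with the mean of each group as a line (5 libraries per group, 4 for vehicle at 24 h). At 9 h the low dose lies between vehicle and the high dose in ENSRNOT00000028781, and at 24 h the vehicle libraries lie far from the low dose in 3 of the 4 transcripts.

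At the later time the position of vehicle differed. ENSRNOT00000028781 had a mean of 41.9 TPM in vehicle at 9 h and 5.20 TPM at the high dose, against 7.19 TPM in vehicle, 34.6 TPM at the low dose and 9.27 TPM at the high dose at 24 h. Its log2 fold change at 24 h was 0.17 (SE 0.16, edgeR adjusted p = 0.401). The vehicle cultures at 24 h were thus as low as those of the high dose, while the low-dose cultures were near the 9 h vehicle level. ENSRNOT00000009813 had a mean of 1864 TPM in vehicle at 9 h and 436 TPM in vehicle at 24 h, where the low dose had 1461 TPM and the high dose 1074 TPM. Its log2 fold change at 24 h was 1.12 (SE 0.08), larger than at 9 h by the test of the difference (−0.51 for 9 h minus 24 h, edgeR adjusted p = 0.000252). ENSRNOT00000057585 had a log2 fold change of −0.22 at 24 h (SE 0.11, edgeR adjusted p = 0.141), and the effects differed by −0.72 (edgeR adjusted p = 0.00346). The largest rise, ENSRNOT00000046799, was too uneven for such a test (difference −2.67, SE 7.12), with means of 168.5 TPM at the high dose at 9 h and 8.47 TPM at 24 h, where it ranged from 0 to 42.3 TPM.

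With no gene names at hand, transcripts were sorted by cell type from their levels in other libraries. A transcript was called hepatocyte-enriched when its mean in the 24 h vehicle libraries of the hepatocytes was at least 10 TPM and at least 16 times that in both other cell types, after adding 0.5 TPM to each, and shared when it had at least 10 TPM in all 3 cell types with means within 4 times of each other. The 10 libraries compared here were not used for this. Of the 253 hepatocyte-enriched transcripts tested, 6 were higher DEGs and 25 were lower DEGs. The lower DEGs were 9.88% of the class and the higher DEGs 2.37%, against 9.95 and 8.48% of all transcripts tested, which are less abundant. At matched levels the lower DEGs were 16.2% of the class between a log2 CPM of 3 and 6, against 8.94% of all transcripts and 3.76% of those shared by the cell types. Between 6 and 9 they were 7.21%, against 3.73 and 1.63%, and at 9 or more 5.56%, against 3.52 and 1.37%. These shares of the class rest on 11, 8 and 3 lower DEGs. Most of the class nevertheless stood slightly higher at the high dose. The log2 fold change was above 0 in 70.0% of the class, with a median of 0.26, and with the adjusted p-value alone 52.6% were higher and 19.4% were lower, against 24.6% and 25.1% of all transcripts tested. The groups did not overlap in 58.5% of the members of the class, against 37.4% of all. These contrasts were narrower at matched levels. Between a log2 CPM of 6 and 9 the groups did not overlap in 62.2% of the class, against 47.8% of all transcripts. With the adjusted p-value alone, 55.0% of the class at that level were higher and 16.2% were lower, against 38.3 and 22.9% of all.

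The median also stood higher in the class at matched levels. Between a log2 CPM of 6 and 9 the median log2 fold change was 0.26 in hepatocyte-enriched and 0.07 in shared transcripts. At 9 or more it was 0.34 in the 54 hepatocyte-enriched transcripts and 0.12 in shared ones. On the TPM scale, with 1 added before the log, the class differed by a median of 0.12 and all tested transcripts by −0.11. The class was also set on the low-dose hepatocyte cultures at 24 h in place of the vehicle cultures that stood apart. It then held 347 tested transcripts with 8 higher DEGs (2.31%) and 45 lower DEGs (13.0%) and a median of 0.18. Of this class 59.9% had a log2 fold change above 0. With the adjusted p-value alone 46.1% were higher and 26.2% were lower, so its share of lower members was no longer under that of all transcripts, 25.1%. On the TPM scale its median difference was 0.04. Of the 5282 shared transcripts 4.75% were higher and 3.09% were lower DEGs, with a median of 0.04, and of the 11072 in neither class 10.4% were higher and 13.2% were lower, with a median of −0.05. The transcripts in neither class had a median level of 2.59 on the log2 CPM scale, so most DEGs were found among transcripts of lower level.

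The share of counts moved with the class. Hepatocyte-enriched transcripts took 13.6 to 14.7% of the transcript counts in vehicle (median 14.2%), 14.8 to 15.2% at the low dose (median 14.9%) and 15.2 to 16.1% at the high dose (median 15.8%), with no overlap between any of the groups. The 25 lower DEGs of the class, which were chosen for being lower in these libraries, had 0.906 to 1.02% of the counts in vehicle and 0.463 to 0.519% at the high dose. The total shares of transcripts enriched in the other cell types overlapped between the groups, although single members differed. The 84 renal-enriched transcripts took 0.105 to 0.118% in vehicle and 0.112 to 0.119% at the high dose, and the 50 cardiomyocyte-enriched transcripts 0.0455 to 0.0525% and 0.0456 to 0.0514%. Of the renal-enriched transcripts 39.3% were DEGs (16 higher and 17 lower) and of the cardiomyocyte-enriched 36.0% (7 higher and 11 lower), against 18.4% of all transcripts tested and 27.2% of those between a log2 CPM of 0 and 3. Both classes were weakly expressed in hepatocytes, with median average levels of 0.90 and 0.63 on the log2 CPM scale.

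**Figure D3:**
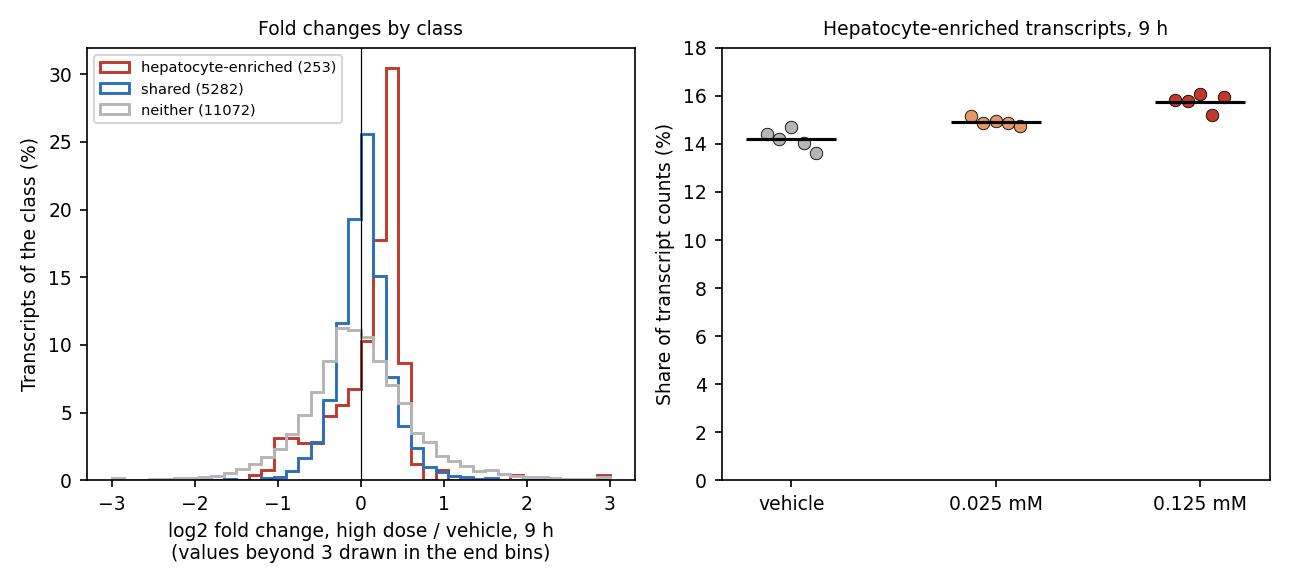
Left, distribution of log2 fold changes (high dose over vehicle, 9 h) in hepatocyte-enriched, shared and other transcripts, in percent of each class. Right, share of transcript counts in percent on the 253 hepatocyte-enriched transcripts in each library at 9 h with group means as lines, from 13.6 to 14.7% in vehicle to 15.2 to 16.1% at the high dose.

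Among well-expressed transcripts the share of DEGs was larger in longer ones. At a log2 CPM of at least 3, 61 of 1028 (5.93%) shorter than 1000 bases were DEGs. The share was 10.9% (350 of 3219) from 1000 to under 2000 bases, 15.8% (621 of 3932) from 2000 to under 4000 bases and 19.5% (374 of 1915) at 4000 bases or more. The sizes of the changes followed the same order, with a median absolute log2 fold change of 0.15 in the shortest and 0.29 in the longest transcripts, and both directions took part, from 3.21% higher and 2.72% lower DEGs in the shortest to 8.77% higher and 10.8% lower DEGs in the longest. A small shift in direction went with the order, as the median log2 fold change went from 0.05 to −0.02 and the share of positive log2 fold changes from 60.99 to 47.8%. The order did not hold over all levels together, where 18.7% of transcripts under 500 bases were DEGs, 13.7% from 500 to under 1000, 16.3% from 1000 to under 2000, 19.9% from 2000 to under 4000 and 22.4% at 4000 bases or more. The low dose, compared with the same vehicle libraries, had the same order at a lower level, with shares of 0.579, 1.26, 1.79 and 1.81% and median absolute log2 fold changes of 0.07 in the shortest and 0.13 in the longest. At the high dose at 24 h the shares were 21.6, 22.5, 23.9 and 22.5%, and in renal cells at 0.125 mM they were 3.78, 3.06, 4.03 and 4.59%. Differences between the comparisons in this order were not tested. The length groups had similar levels, with median log2 CPM of 5.26, 5.10, 5.14 and 5.36.

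**Figure D4:**
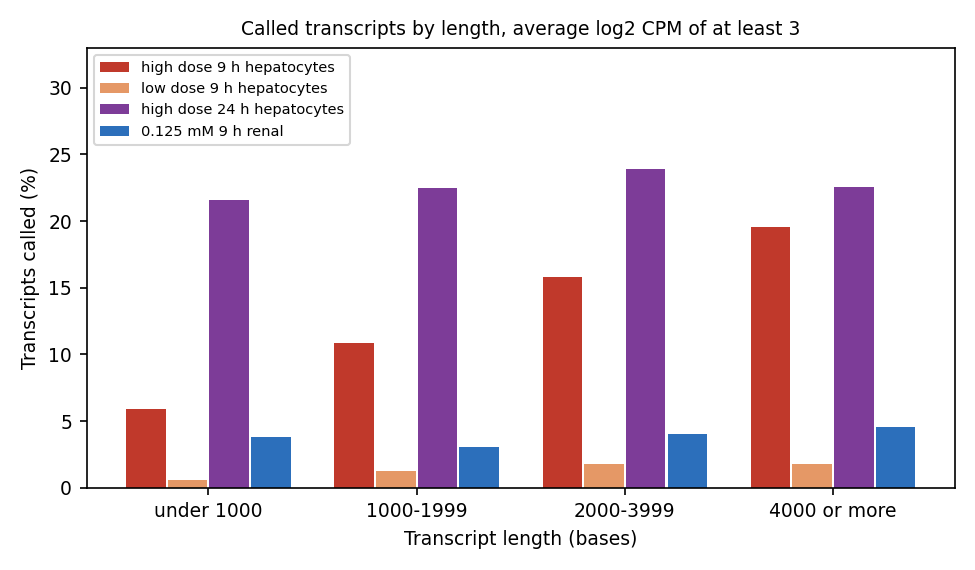
Percent of transcripts called differentially expressed by transcript length, at an average log2 CPM of at least 3, in 4 comparisons with vehicle. For the high dose at 9 h the bars climb from 5.93% in the shortest to 19.5% in the longest transcripts, while for the high dose at 24 h they stay between 21.6 and 23.9%.

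The same dose was also compared with vehicle at 24 h. All 24 h fold changes are relative to the vehicle cultures that stood apart, and whether these differ in handling or labelling was not tested. At 24 h, 2533 of 16749 transcripts were higher (15.1%) and 1942 were lower (11.6%). Of the transcripts higher at 9 h, 1350 were tested at 24 h, and 25.3% were higher again while 12.7% were lower. Of the transcripts lower at 9 h, 1600 were tested, and 17.1% were lower again while 19.3% were higher. Repeated calls were thus more frequent than the background in both sets. Calls in the opposite direction were near the background in the set higher at 9 h and above it in the set lower at 9 h. The median log2 fold change at 24 h was 0.14 in the set higher at 9 h and 0.04 in the set lower at 9 h, so neither set as a whole kept its 9 h size. With MS-183 put back these medians were 0.06 and −0.12, and that of the lower set thus changed sign. With vehicle library MS-183 put back, 9.71% of the first set were higher again and 3.77% were lower, and 5.87% of the second set were lower again and 7.64% were higher, against 6.65% higher and 3.72% lower of all transcripts tested in that fit. Of the 25 hepatocyte-enriched transcripts that were lower at 9 h, 15 were lower and 3 were higher at 24 h, with a median of −0.73, or 7 lower and 1 higher with MS-183 put back. Of the whole class 26.1% were lower and 47.4% were higher at 24 h, or 15.02% lower and 29.6% higher with MS-183 put back. These classes were set on vehicle libraries that also entered the 24 h comparison.

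The test of the difference between times found 8792 of 17898 transcripts (49.1%) whose high-dose effect was not the same at 9 and 24 h. Among the transcripts higher at 9 h, 885 of 1408 differed, 795 of them with the more positive effect at 9 h. Among those lower at 9 h, 1213 of 1653 differed, 1152 with the more negative effect at 9 h. These counts describe sets chosen for a large effect at 9 h and are no separate evidence. They also rest on the vehicle cultures at 24 h, which stood apart as given above, and with MS-183 put back 4843 of 17620 transcripts (27.5%) differed.

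**Figure D5:**
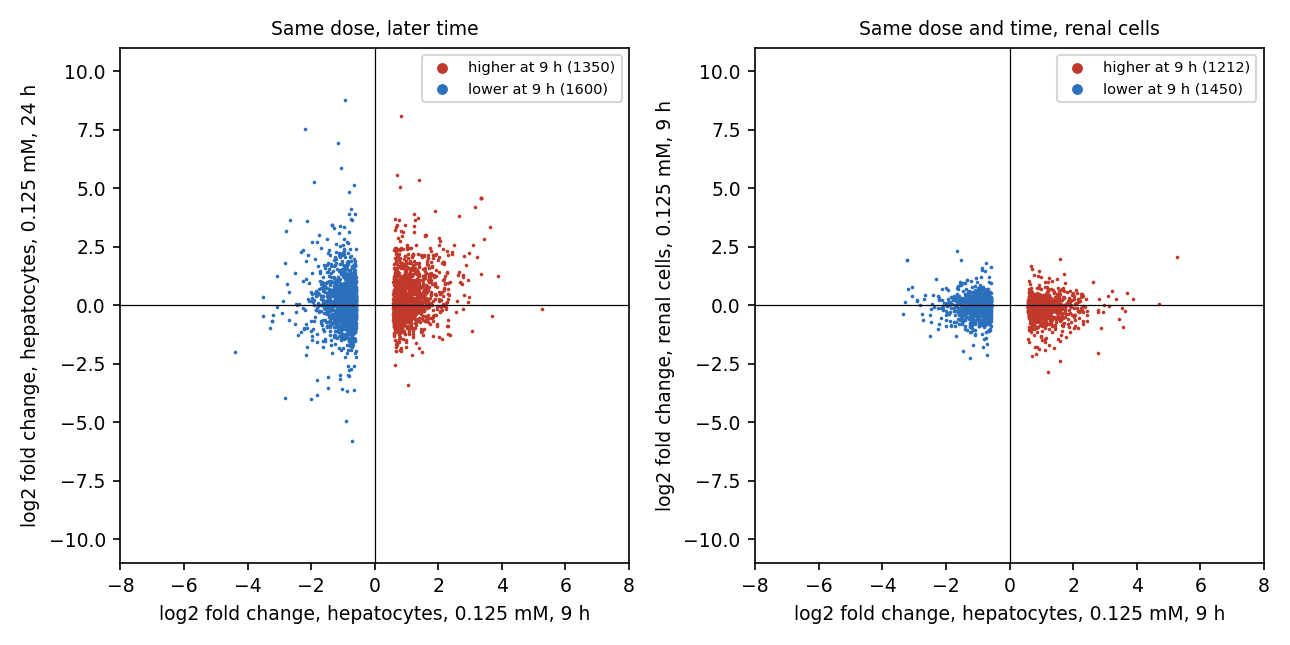
Log2 fold change of the 9 h DEGs in hepatocytes (horizontal axis) against their log2 fold change at the same dose after 24 h (left) and in renal cells at the same dose and time (right). At 24 h both sets spread widely on either side of 0, with medians of 0.14 and 0.04, and in renal cells most values lie close to 0.

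Renal proximal tubular epithelial cells received the same concentration, 0.125 mM, as their low dose, and were harvested at the same time. They showed fewer changes, with 399 of 17535 transcripts higher (2.28%) and 774 lower (4.41%). Of the transcripts higher in hepatocytes, 1212 were tested in renal cells, and 28 were higher (2.31%) while 78 were lower (6.44%), with a median log2 fold change of −0.06. Of those lower in hepatocytes, 1450 were tested, and 72 were lower (4.97%) while 39 were higher (2.69%), with a median of −0.03. Over all transcripts tested in both comparisons, 1.51% were higher and 2.93% were lower in renal cells. Renal calls in either direction were thus more frequent in both hepatocyte sets than over the transcripts they were drawn from, and nearly all members of both sets were not called. In the shared class, where the transcript is well expressed in both cell types, 1 transcript lower in hepatocytes was lower in renal cells (0.617%) and none was higher. Of 243 higher in hepatocytes, 1 was higher in renal cells and 8 were lower (3.29%). Over the whole shared class 0.286% were higher and 0.857% were lower in renal cells.

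The effect of 0.125 mM at 9 h differed between hepatocytes and renal cells for 7448 of 19361 transcripts (38.5%), by the test of the interaction of exposure and cell type. In the set higher in hepatocytes 1084 of 1401 differed, and in the set lower in hepatocytes 1213 of 1647 differed, again in sets chosen for their effect in hepatocytes. A pair of the named transcripts moved in opposite directions. ENSRNOT00000009813, at 15.5 ± 3.21 TPM (SD, n = 5) in renal vehicle cultures and 7.57 ± 0.70 TPM (SD, n = 5) at 0.125 mM, had a log2 fold change of −1.02 there (SE 0.13, edgeR adjusted p = 0.000109), which differed by 1.63 from that in hepatocytes. ENSRNOT00000057585, at 704 ± 36.7 TPM (SD, n = 5) in renal vehicle cultures and 1027 ± 79.1 TPM (SD, n = 5) at 0.125 mM, had a log2 fold change of 0.57 there (SE 0.06, edgeR adjusted p = 2.79e-05), which differed by −1.51. ENSRNOT00000028781 was at most 0.0713 TPM in the renal libraries and was not tested there.

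The low dose at 9 h, 0.025 mM, was compared with the same vehicle libraries, so its changes are not independent of those at the high dose. Its median log2 fold change was 0.38 in the transcripts higher at the high dose, against 0.93 at the high dose, and −0.34 in those lower, against −0.85. At the low dose 12.8% of the higher set and 11.1% of the lower set were DEGs in the same direction, against 1.12 and 1.22% over all transcripts tested. The shared vehicle libraries alone favour the same direction, and nothing further is read from these shares.

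The genomic intervals, which carry 6.28 to 9.78% of the estimated counts of the 10 libraries, also changed. In a fit of transcripts and intervals together, 9158 intervals were tested, of which 1479 were higher (16.1%) and 929 were lower (10.1%). The transcripts of the same fit numbered 1323 higher and 1829 lower DEGs. What the intervals are was not given in the sources used here, and they are reported only as counts.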

How the data were processed

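Hepatocyte libraries of the high dose and vehicle at 9 h were compared, and libraries of the other groups were used where named. The authors deposited, for each library and target, the estimated counts and the TPM from kallisto 0.42.4 (per the submitters' processing notes) against Rnor_6.0, with the target's length. Such counts can be fractional, since reads that fit more than 1 transcript are shared out. The origin of the genomic intervals is not given in the sources used here.

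Estimated counts of transcripts were rounded and tested with edgeR 4.0.16 in R 4.3.3, using filterByExpr, TMM scaling, glmQLFit and glmQLFTest, and Benjamini-Hochberg adjustment over all transcripts tested. Of 40071 transcripts, 10936 had no counts in the 10 libraries and 12528 fell under the filter. CPM values use TMM-scaled library sizes (factors 0.954 to 1.05). The standard error was the log2 fold change divided by the square root of the F statistic. Levels of single transcripts in different cell types and times are given in TPM. The groups by level and the largest rise and fall use CPM, which is not corrected for length. Counts were taken as whole only where exactly whole as deposited. The tables round to 6 significant digits, so that the largest counts always appear whole, which touches 11 of the 6566 transcripts. A library with under 50% of its counts on transcripts was left out, which removed vehicle library MS-183 at 24 h. Differences between times and cell types were tested as contrasts of group means. The alternatives were DESeq2 1.42.0, limma 3.58.1 on log2(TPM + 1), upper-quartile normalization, other filters and thresholds, and each library left out. The comparison, the transcript classes and the lists were chosen with earlier results of these data known. The lists of genes that had been set up could not be used, since 0 rows of the reference gene table (GRCr8) held an Ensembl identifier, and no sequence is shown. The 4 named transcripts were, among DEGs with an average log2 CPM of at least 3 and groups that did not overlap, those with the largest positive and negative log2 fold change and the largest rise and fall in mean CPM.

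On simulated data with 200 changed among 16607 transcripts, the fit of the 9 h comparison called 150 (126 of 141 at 2-fold or more), none in the wrong direction, and 4 unchanged ones. The interaction with cell type, over 19361 transcripts, called 132 of 200 (120 of 157 at 2-fold or more) and 2 unchanged ones. Both simulations required the fold threshold, whereas the interaction counts in the data used the adjusted p-value alone. Unchanged transcripts had the same base level in all groups, and a far smaller part of the transcripts changed than in the data. The simulation therefore does not give the error of the interaction counts. The libraries held 15413513 counts or more, and counting error was not measured apart from the spread between libraries.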

Additional observations from a re-analysis of the deposited data

Results flagged for a closer look

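Over 34 sets of 5 library values at 9 h, a library stood far from the other 4 in 3 sets, where chance gives about 1 in 20, or 1.7. The vehicle library MS-95 had the fewest estimated counts, 15413513, and without it 3260 transcripts were DEGs in place of 3062. For ENSRNOT00000046799 the highest vehicle library stood at 2.77 CPM, above the other 4. The share of counts on the 25 hepatocyte-enriched lower DEGs was 0.463% in the lowest high-dose library, under the other 4. These transcripts were chosen for being lower at the high dose.

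The effect of the high dose differed between 9 and 24 h in 8792 of 17898 transcripts (49.1%) by the test of that difference. This count rests on the 24 h vehicle cultures that stood apart, and with MS-183 put back it was 4843 of 17620 (27.5%). Among the named transcripts the log2 effect at 9 h minus that at 24 h was −0.51 for ENSRNOT00000009813, −3.06 for ENSRNOT00000028781 and −0.72 for ENSRNOT00000057585. The effect of 0.125 mM at 9 h differed between hepatocytes and renal cells in 7448 of 19361 transcripts (38.5%). The log2 effect in hepatocytes minus that in renal cells was 1.63 for ENSRNOT00000009813 and −1.51 for ENSRNOT00000057585. Outside the transcripts, 1479 of 9158 genomic intervals tested were higher at the high dose than in vehicle (16.1%), and 929 were lower (10.1%).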

How the results depend on the processing

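The 3062 DEGs at 9 h (1409 higher, 1653 lower) became 3075 with DESeq2, 3068 with upper-quartile normalization and 3274 without a filter. The counts moved by over 1.5 times with no fold threshold (8258, as 4087 higher and 4171 lower) and at 2-fold or more (1200, as 619 and 581). With limma on log2(TPM + 1) they did so in the higher direction (627 higher and 1524 lower). Transcripts with whole counts in all 10 libraries gave 1352, as 629 and 723, but only 6558 were tested in that fit, against 16607 in the main fit. Removing the median shift of the TPM, an alternative chosen after seeing the data, gave 1911 DEGs, as 946 higher and 965 lower. Leaving out MS-95 and MS-105 together, also chosen after seeing the data, gave 3190. Leaving out each library in turn gave 2895 to 3260 DEGs (1322 to 1511 higher, 1556 to 1749 lower), 4192 to 4624 at 24 h, where the full comparison gave 4475, and 1092 to 1229 in renal cells, where it gave 1173. With vehicle library MS-183 put back, 1693 transcripts were DEGs at 24 h, and 4843 in place of 8792 differed between times. With a difference of at least 2-fold, 1955 in place of 7448 differed between cell types. The median of the hepatocyte-enriched class, 0.26, was 0.22 at a limit of 8 times, 0.28 at 32 times, 0.18 with the class set on low-dose cultures and 0.12 on the TPM scale, all chosen after seeing the data. For the named transcripts, 58 of 60 alternatives kept the call and the direction. ENSRNOT00000009813 fell under the fold threshold in 2, at 0.48 with limma on TPM and 0.57 without MS-105. No paired analysis was possible because library numbers are not shared between groups, and a batch common to MS-95 and MS-105 is not given in the labels. Counts divided between similar transcripts add an error that these tests do not see.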
